A study of Mus musculus with 18 samples.

Results

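The Zfp-named genes are mouse genes for zinc finger proteins that carry the historical symbol Zfp and a number. Members were the protein_coding genes of the raw count table whose symbol starts with Zfp and a digit and whose counts over the 18 libraries sum to at least 1000. Zfp36, Zfp36l1 and Zfp36l2, RNA-binding proteins with another kind of finger, were left out. Of 391 such genes in a table of 54532 genes, 252 were members, 121 had counts but fell below the minimum, and 18 had no count. The summed count chose the members, so their abundance is a description here. The rule did not use differences between groups directly, but a large change could carry a gene over the minimum. The sums ran from 1006 to 81842 counts with a median of 5006. Just inside the minimum were Zfp229 with 1006 counts, Zfp58 with 1042 and Zfp3 with 1078. Just outside it were Zfp689 with 999 counts, Zfp808 with 915 and Zfp867 with 900. For Zfp296, Zfp827, Zfp229 and Zfp811 the 12 untreated and vehicle libraries alone fell short of their share of the minimum, so the imiquimod libraries carried these 4 genes over it. For 13 members, among them Zfp831, Zfp874b, Zfp395, Zfp637 and Zfp521, the 6 imiquimod libraries fell short in the same way. All 252 members passed the filter on low counts.

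Plasmacytoid dendritic cells (pDCs), the dendritic cells specialised in type I interferon, were grown from wild-type C57BL/6 bone marrow with Flt3L at 80 ng/mL for 7 days and enriched on beads against B220, with a routine purity of 80% by the labels. Imiquimod, a small-molecule agonist of the endosomal RNA sensor TLR7, was given at 2.5 µg/mL for 6 h or 16 h (imiquimod 6 h and imiquimod 16 h). The references were cells given the vehicle for 6 h or 16 h (vehicle 6 h and vehicle 16 h), vehicle cells harvested at 0 h (vehicle 0 h) and untreated cells at 0 h (untreated 0 h). The labels name the vehicle LAL, for Limulus amebocyte lysate, and do not say whether the lysate or the water of that reagent was added. Each of the 6 groups had 3 libraries made from total RNA after rRNA depletion, and all groups share the strain, the genotype and the Flt3L culture. The labels do not say that libraries came from separate animals or cultures, so the p-values describe how far these libraries spread, and that spread may be technical.

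The libraries held 10609741 to 13447018 counts, and 14876 genes were tested. Levels are counts scaled to library size by TMM (CPM), and a gene was called when its edgeR adjusted p was under 0.05. All 12 pDC marker genes were expressed, with a summed level of 6605 to 6876 CPM at imiquimod 6 h, 7506 to 7695 CPM at vehicle 6 h, 4643 to 4724 CPM at imiquimod 16 h and 9245 to 9349 CPM at vehicle 16 h. At 6 h Siglech (log2 fold change -1.95), Ccr9 (-2.53), Cox6a2 (-1.62), Runx2 (-1.04), Pacsin1 (-1.02) and Irf8 (-0.32) were called lower with imiquimod. Ly6d (1.76), Tlr7 (1.18), Spib (0.96), Bst2 (0.87), Klk1 (0.64) and Tcf4 (0.30) were called higher. Markers of other cells that a B220 bead fraction can hold moved with treatment. The 7 conventional dendritic cell type 1 markers summed to 544 to 574 CPM at imiquimod 6 h against 1370 to 1384 CPM at vehicle 6 h, and the 8 monocyte and macrophage markers to 221 to 227 CPM at imiquimod 6 h against 1430 to 1588 CPM at vehicle 6 h. In the type 1 list Wdfy4 gave most of the sum, at means of 396 CPM with imiquimod and 959 CPM with vehicle. All 7 type 1 genes were called lower at 6 h, and only Batf3 was not called at 16 h (-0.06). In the monocyte and macrophage list Ccr2 gave most of the sum, at a mean of 71.1 CPM with imiquimod and 1323 CPM with vehicle, while Fcgr1 (log2 fold change 5.47), Cd14 (1.16) and Ly6c2 (0.77) were called higher at 6 h. The 6 B cell markers summed to 167 to 180 CPM at imiquimod 6 h against 101 to 109 CPM at vehicle 6 h. That sum rose through Pax5 (log2 fold change 2.56 at 6 h and 2.64 at 16 h), while Fcer2a (-2.67 and -4.03), Cd79b (-1.37 and -0.83), Ms4a1 (-0.39 and -0.62) and Ebf1 (-0.37 and -0.40) were called lower at both times. At 16 h the type 1 markers summed to 502 to 536 CPM with imiquimod against 1185 to 1233 CPM with vehicle, and the monocyte and macrophage markers to 88.6 to 102 CPM with imiquimod against 1898 to 1966 CPM with vehicle. The B cell markers then summed to 187 to 197 CPM with imiquimod against 104 to 132 CPM with vehicle. The 5 markers of conventional dendritic cells type 2 summed to 145 to 152 CPM at imiquimod 6 h against 279 to 294 CPM at vehicle 6 h, and to 116 to 119 CPM at imiquimod 16 h against 285 to 288 CPM at vehicle 16 h. The T and NK cell, neutrophil and erythroid lists summed to at most 1.41 CPM in any library. The part of these shifts in the Zfp results was not tested, and in bulk RNA fewer cells of a type and less RNA per cell cannot be told apart.

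Most Zfp genes encode proteins with a row of C2H2 fingers, small zinc-held loops that each read a few bases of DNA. A large subfamily also carries a KRAB box, which binds the corepressor TRIM28 (KAP1). TRIM28 in turn brings the histone methyltransferase SETDB1 and HP1 proteins, and such complexes are known for silencing retroelements and for protecting imprints. Zfp genes without a KRAB box act in many ways, as activators, as partners of histone deacetylase complexes, and in splicing, ribosome assembly and translation.

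By a fixed pattern searched in the annotated proteins, 124 members had a KRAB-like box and 128 had none. The median member had 11 C2H2 fingers, and the highest number was 37 in Zfp142. Zfp703, Zfp330 and Zfp839 had no match to the finger pattern. Of the 252 members, 141 shared no 75-base exon window with another gene, and 13 shared over 20% of theirs, so that reads of these 13 may be split or lost between copies. Per kilobase of exon, levels averaged over the 18 libraries ran from 0.548 CPM for Zfp111 to 42.7 CPM for Zfp207, with a median of 4.71 CPM. Zfp207 encodes a spindle and splicing protein that protects Bub3. It was followed on the same per-length scale by Zfp106, an RNA-binding protein needed by motor neurons, at 36.5 CPM, by the corepressor-binding Zfp217 at 34.1 CPM, and by Zfp62 at 32.1 CPM and Zfp800 at 28.3 CPM. The median was 4.0 CPM per kilobase for genes with a KRAB-like box and 5.90 CPM per kilobase for the others.

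Zfp genes were more often called lower than higher after imiquimod at both times. The minimum of counts is not neutral here, since the imiquimod libraries fell short of their share for 13 members and the untreated and vehicle libraries for 4. At 6 h, 63 of 252 members were called higher and 134 lower than in vehicle cells of the same time, where 37.7% of all genes tested were called higher and 39.2% lower. The median log2 fold change was -0.23 over the members and -0.04 over all genes tested. Changes of at least 2-fold were fewer, with 15 members higher and 43 lower, against 16.2% and 19.3% of all genes. At 16 h, 63 members were called higher and 129 lower, where 39.1% of all genes were called higher and 38.1% lower. The median was then -0.17 over the members and 0.00 over all genes, and 8 members were at least 2-fold higher and 18 at least 2-fold lower, against 16.6% and 16.8% of all genes. The direction of small changes at 6 h depends on the scaling. With libraries scaled by their totals, the median over all genes moved by -0.35, which put it at -0.39, and 34 members were called higher and 190 lower, while the members' median lay 0.20 below that of all genes under either scaling. Of all genes tested 24.9% were then called higher and 55.3% lower.

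The genes with a KRAB-like box had the larger share of lower calls. At 6 h, 21 of these 124 genes were called higher and 78 lower, with a median log2 fold change of -0.44, while 42 of the 128 others were called higher and 56 lower, with a median of -0.11. With libraries scaled by their totals these counts were 12 and 102 (median -0.79) for the KRAB-like class and 22 and 88 (median -0.46) for the others. Under that scaling 24.9% of all genes were called higher and 55.3% lower. At 16 h the KRAB-like class had 21 higher and 71 lower with a median of -0.30, and the others had 42 higher and 58 lower with a median of -0.10. A looser box pattern put 133 genes in the class, with 23 higher and 84 lower at 6 h. Genes with 10 or more fingers, a group of 145 that overlaps the KRAB-like class, had 30 higher and 82 lower at 6 h. The 70 genes with 5 to 9 fingers had 25 higher and 34 lower, and the 34 with 1 to 4 fingers had 7 higher and 17 lower. By position, chromosome 7 held 56 members, with 9 called higher and 30 lower at 6 h, chromosome 17 held 38, with 8 and 20, and chromosome 13 held 26, with 6 and 15. All 9 members on chromosome 15 were called lower at 6 h, with a median log2 fold change of -0.95. Of all genes tested, 37.7% were called higher and 39.2% lower at 6 h, and 39.1% and 38.1% at 16 h. No share was computed for the other genes of any chromosome, and the remaining chromosomes are not listed here. These are counts of called genes in classes read from sequence or position, and the difference between the classes was not tested.

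**Figure D1:**
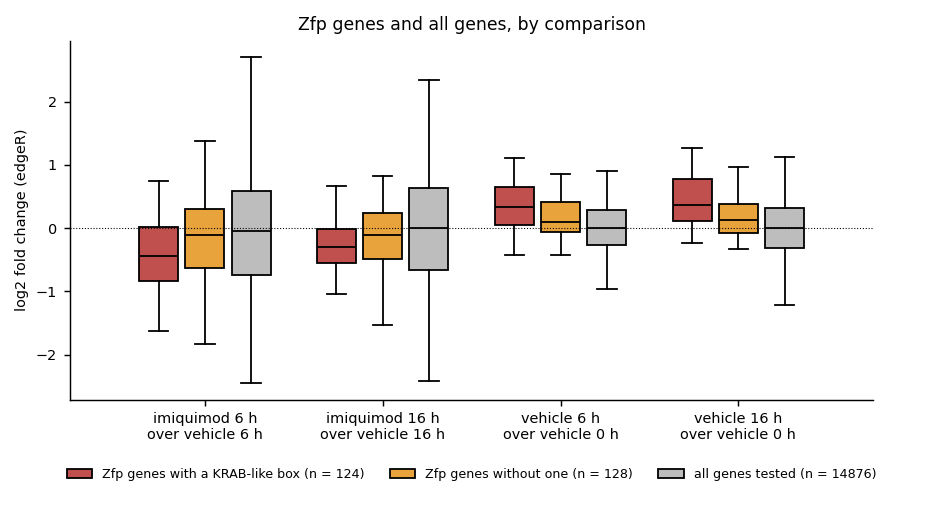
Box plots of the log2 fold change (vertical axis) in 4 comparisons for Zfp genes with a KRAB-like box (n = 124), Zfp genes without one (n = 128) and all genes tested (n = 14876). Boxes span the quartiles with the median as a line, and whiskers run between the percentiles 5 and 95. The KRAB-like boxes have medians of -0.44 and -0.30 after imiquimod and of 0.33 and 0.36 in vehicle cells over time.

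In vehicle cells over time more Zfp genes were called higher than lower. Vehicle 6 h had 131 members called higher and 36 lower than vehicle 0 h, where 26.0% of all genes were called higher and 26.9% lower. The median log2 fold change was 0.22 over the members and 0.00 over all genes. Vehicle 16 h had 142 members called higher and 29 lower than vehicle 0 h, where 28.4% of all genes were called higher and 30.0% lower, and the members' median was 0.26. At least 2-fold higher were 16 members at 6 h and 23 at 16 h, against 3.40% and 5.59% of all genes, and at least 2-fold lower were 0 and 1, against 4.03% and 6.22%. The KRAB-like class had 74 higher and 13 lower at 6 h and 84 higher and 9 lower at 16 h. The others had 57 higher and 23 lower at 6 h and 58 higher and 20 lower at 16 h. These comparisons share the vehicle 6 h and vehicle 16 h libraries with the imiquimod comparisons, so the directions are not independent.

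Set against vehicle 0 h, chosen for comparison with the data already known, imiquimod 6 h had 88 members higher and 94 lower, where 36.7% of all genes were called higher and 38.7% lower. Imiquimod 16 h had 108 higher and 80 lower against vehicle 0 h, where 38.8% of all genes were called higher and 36.8% lower. The KRAB-like class then had 37 higher and 50 lower at imiquimod 6 h and 56 higher and 37 lower at imiquimod 16 h. The 6 h counts depend on the scaling here too, with 47 members higher and 159 lower when libraries were scaled by their totals. Of all genes 23.1% were then called higher and 56.0% lower.

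At 0 h, no member and no gene in the table was called between vehicle and untreated cells by edgeR, a background of 0%. At an unadjusted p under 0.05, edgeR gave 7 members and 4.76% of all genes, and DESeq2 gave 3 members, 2.33% of all genes and no call.

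Library by library, the median KRAB-like gene stood at -0.26 to -0.22 log2 units from its own mean over the 18 libraries at imiquimod 6 h, and at 0.12 to 0.26 at vehicle 6 h. At 16 h it stood at -0.04 to 0.02 with imiquimod and at 0.28 to 0.29 with vehicle. The 0 h libraries lay at -0.13 to -0.09 with vehicle and at -0.19 to -0.06 untreated. The imiquimod and vehicle libraries of the same time did not overlap, and at 16 h the imiquimod libraries lay above all 0 h libraries. The median gene without a KRAB-like box stood at -0.03 to 0.01 for imiquimod 6 h, 0.08 to 0.11 for vehicle 6 h, 0.01 to 0.03 for imiquimod 16 h and 0.09 to 0.12 for vehicle 16 h. Taken as a share of all counts in a library, without TMM scaling, the 252 members made up 0.848% to 0.856% at imiquimod 6 h against 1.03% to 1.11% at vehicle 6 h, and 0.980% to 1.01% at imiquimod 16 h against 1.08% at vehicle 16 h. With TMM scaling the members' summed level overlapped at 6 h, at 10237 to 10384 CPM with imiquimod and 9884 to 10425 CPM with vehicle. At 16 h it was 9755 to 9881 CPM with imiquimod and 10543 to 10556 CPM with vehicle. Of the 252 members, 94 had their highest group mean at vehicle 16 h and 94 had their lowest at imiquimod 6 h, while 53 had their highest at imiquimod 6 h.

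**Figure D2:**
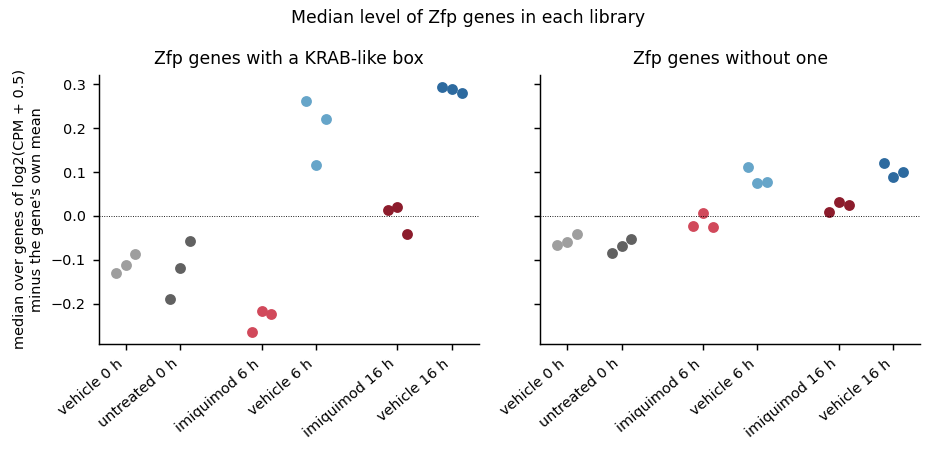
Each point is 1 library, and the vertical axis gives the median over genes of log2(CPM + 0.5) minus the gene's own mean over the 18 libraries, for Zfp genes with a KRAB-like box (left) and without one (right). In the left panel the imiquimod 6 h libraries lie at -0.26 to -0.22 and the vehicle 6 h libraries at 0.12 to 0.26.

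Against this majority a few KRAB-like genes rose strongly. Zfp811 (ENSMUSG00000055202.10, chromosome 17, 32795676 to 32809931, minus strand, GRCm38) encodes a protein with 14 fingers and a KRAB-like box. It had 29.5, 27.2 and 27.2 CPM at imiquimod 6 h against 0.311, 0.463 and 0.821 CPM at vehicle 6 h, and 50.7, 49.9 and 48.1 CPM at imiquimod 16 h against 0.827, 1.33 and 1.22 CPM at vehicle 16 h. All imiquimod libraries stood far above all others, and the vehicle 6 h values rest on 4, 6 and 10 reads. The change was 52.1-fold at 6 h (log2 5.70 with an SE of 0.17, edgeR adjusted p = 3.6e-45) and 43.5-fold at 16 h, the highest among the members at both times. The imiquimod libraries carried Zfp811 over the minimum of counts, so its membership and rank are not independent of this rise. Both neighbours are also Zfp genes. Zfp871 had log2 fold changes of 0.18 (called) at 6 h and -0.03 (not called) at 16 h, and Zfp799 had -0.51 (called) and -0.04 (not called).

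Zfp599 (chromosome 9, 22247430 to 22259895) encodes another KRAB-like protein, with 10 fingers. Averaged over the 18 libraries it stood at 25.6 CPM per kilobase, a mean that the imiquimod libraries raised. It had 248, 264 and 263 CPM at imiquimod 6 h against 16.6, 15.3 and 17.4 CPM at vehicle 6 h, a 15.7-fold rise (edgeR adjusted p = 3.33e-69). At 16 h it had 206, 216 and 214 CPM with imiquimod against 15.3, 18.4 and 17.1 CPM with vehicle, a 12.5-fold rise. The groups stood apart at both times, and vehicle cells at 6 h and 16 h were slightly lower than at 0 h, with log2 fold changes of -0.43 and -0.38. The adjacent Zfp809, whose protein silences murine leukaemia virus DNA through TRIM28, rose with it, to 93.0, 94.5 and 103 CPM at imiquimod 6 h against 52.9, 47.4 and 47.4 CPM at vehicle 6 h (1.97-fold). Zfp810, on the other side of Zfp599, fell by 0.33 on the log2 scale at 6 h and by 0.82 at 16 h. Zfp119b rose 2.54-fold at 6 h, to 22.6, 19.7 and 21.1 CPM with imiquimod against 8.56, 8.33 and 8.13 CPM with vehicle, and 1.33-fold at 16 h, and it shares 10.5% of its 75-base windows, mostly with Zfp959. Zfp850 had 10.1, 9.78 and 9.72 CPM at imiquimod 6 h against 11, 10.0 and 10.8 CPM at vehicle 6 h, which was not called with TMM scaling but was with library totals (log2 fold change -0.45), and rose 1.91-fold at 16 h.

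Other KRAB-like genes fell to a small part of their vehicle level. Zfp874b and Zfp874a lie next to each other on chromosome 13 and have 10 fingers each. Zfp874b had 2.94, 2.52 and 2.55 CPM at imiquimod 6 h against 21.1, 16.0 and 19.9 CPM at vehicle 6 h, a log2 fold change of -2.82. Zfp874a had 2.55, 2.90 and 3.04 CPM at imiquimod 6 h against 16.6, 15 and 15.7 CPM at vehicle 6 h, a log2 fold change of -2.47. In both genes the imiquimod libraries lay below every other library at 6 h. At 16 h the log2 fold changes were -1.90 for Zfp874b and -1.07 for Zfp874a. The imiquimod libraries of Zfp874b fell short of their share of the minimum of counts, so its membership is not independent of this fall. The 2 genes share 4.71% of the 75-base windows of Zfp874a and 8.34% of those of Zfp874b, mostly with each other, so part of their reads may not be told apart. Of the genes on either side, Zfp459, no member for its low counts, had -2.66 (called) at 6 h and -0.81 (called) at 16 h, and Zfp58 had -0.02 and -0.34, neither called.

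Zfp945 on chromosome 17, with 18 fingers, had 6.57, 6.10 and 5.6 CPM at imiquimod 6 h against 31.7, 27.8 and 29.2 CPM at vehicle 6 h. At 16 h it had 18.7, 20.1 and 22.2 CPM with imiquimod against 43.0, 42.9 and 43.9 CPM with vehicle. The groups stood apart at both times, and the log2 fold change was -2.28 at 6 h and -1.09 at 16 h. Zfp606, Zfp873 and Zfp7 combined a fall at imiquimod 6 h with a rise over time in vehicle cells. Zfp606 had 7.65, 7.74 and 6.87 CPM at imiquimod 6 h against 22.3, 25.8 and 21.9 CPM at vehicle 6 h, while vehicle 0 h had 9.06, 8.55 and 12.2 CPM. Vehicle 16 h had 25.9, 25.2 and 24.1 CPM, so both later vehicle groups stood above vehicle 0 h, while the imiquimod 6 h libraries lay below but close to it. Zfp873 had a log2 fold change of -1.56 at imiquimod 6 h over vehicle 6 h and of 1.02 at vehicle 6 h over vehicle 0 h, and Zfp7 had -0.88 and 1.45, comparisons that share the vehicle 6 h libraries.

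Promoter sequences of 208 of the 252 members were matched by symbol in RefSeq tables for GRCm38.p6, and the 250 bases before each annotated start were read. Genes with several starts have several windows, 252 in all for these members. The median number of CpG sites was 12 in the member windows against 6 in all 32851 windows. For CpG sites and for the motifs below, the set of all windows was not limited to genes expressed in these cells. Members were chosen by their counts, and the part of expression in the gaps between the sets was not tested. Of 4 motifs searched on both strands, CCAAT (or ATTGG) was in 46.8% of member windows and 33.8% of all, and in 54.5% of windows of KRAB-like genes against 39.5% of the others. ACTTCCGG (or CCGGAAGT), a core read by ETS factors, was in 9.13% of member windows and 2.88% of all. The core of the interferon-stimulated response element, searched as GAAA, any 2 bases and GAAA, was in 1.98% of member windows and 2.98% of all, and a form of the NF-kB site, searched as GGGA, any base and TTTCC, was in 0.794% and 0.356%. Member genes with CCAAT numbered 32 of the 54 called higher at 6 h and 53 of the 109 called lower, and those with the interferon element core 1 of 54 and 3 of 109. A match here is a match of letters and no evidence of binding.

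The windows of 5 members are printed to show the sequence beside the start of genes with large changes at 6 h: Zfp811 and Zfp296 rose, and the neighbours Zfp874b and Zfp874a, and Zfp945, fell. Each is the RefSeq window of 250 bases before the start in GRCm38.p6, read 5′ to 3′ on the gene's strand, with the searched motifs in capitals where present. Zfp811 (chr17:32809932-32810181, minus strand) holds CCAAT once. Zfp945 (chr17:22867135-22867384, minus strand) holds CCGGAAGT once. Zfp296 (chr7:19577037-19577286, plus strand), Zfp874b (chr13:67484254-67484503, minus strand) and Zfp874a (chr13:67451625-67451874, minus strand) hold none of the 4 motifs.
Zfp811: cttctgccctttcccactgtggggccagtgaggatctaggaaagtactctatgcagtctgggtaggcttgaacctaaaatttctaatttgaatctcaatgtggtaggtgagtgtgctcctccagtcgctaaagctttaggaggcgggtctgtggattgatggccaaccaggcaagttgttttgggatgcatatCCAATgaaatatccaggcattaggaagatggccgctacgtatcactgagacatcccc
Zfp945: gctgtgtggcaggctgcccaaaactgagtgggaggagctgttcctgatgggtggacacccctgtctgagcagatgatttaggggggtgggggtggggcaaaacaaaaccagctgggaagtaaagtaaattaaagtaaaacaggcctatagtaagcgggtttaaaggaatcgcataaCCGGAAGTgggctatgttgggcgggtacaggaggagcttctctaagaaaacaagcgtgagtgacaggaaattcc
Zfp296: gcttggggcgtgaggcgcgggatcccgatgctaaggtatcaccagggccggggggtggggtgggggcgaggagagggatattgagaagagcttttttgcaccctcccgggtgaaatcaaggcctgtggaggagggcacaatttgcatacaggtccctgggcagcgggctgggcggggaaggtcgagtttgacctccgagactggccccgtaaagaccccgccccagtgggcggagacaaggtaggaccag
Zfp874b: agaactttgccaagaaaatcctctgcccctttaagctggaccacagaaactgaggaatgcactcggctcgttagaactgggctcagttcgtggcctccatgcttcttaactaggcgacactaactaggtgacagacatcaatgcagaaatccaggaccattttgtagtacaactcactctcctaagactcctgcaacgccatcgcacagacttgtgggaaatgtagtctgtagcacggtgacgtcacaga
Zfp874a: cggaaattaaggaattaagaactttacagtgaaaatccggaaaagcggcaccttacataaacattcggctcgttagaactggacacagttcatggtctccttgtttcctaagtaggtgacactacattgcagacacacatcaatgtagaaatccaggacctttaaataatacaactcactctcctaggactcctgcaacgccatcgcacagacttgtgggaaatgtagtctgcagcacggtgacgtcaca

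The windows of Zfp874b and Zfp874a were identical at 198 of 269 aligned columns (73.6%). Zfp811, the member with the highest rise, has 4 CpG sites in its window, Zfp945 has 5, and Zfp296 has 14.

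Among members without a KRAB-like box, Zfp366, Zfp800, Zfp296, Zfp827, Zfp703, Zfp513 and Zfp280b rose at both times. Zfp366, known as DC-SCRIPT, is a corepressor with 11 fingers that is characteristic of dendritic cells. It had 214, 213 and 217 CPM at imiquimod 6 h against 27.9, 28.5 and 30.6 CPM at vehicle 6 h, and 165, 167 and 168 CPM at imiquimod 16 h against 33.4, 29.3 and 32.3 CPM at vehicle 16 h. The imiquimod libraries stood apart from all others, at 7.42-fold at 6 h (edgeR adjusted p = 3.78e-63) and 5.27-fold at 16 h. Zfp800, at chromosome 6, 28239927 to 28398005, had 277, 280 and 291 CPM at imiquimod 6 h against 75.5, 67.0 and 73.0 CPM at vehicle 6 h, a 3.93-fold rise, and rose 2.72-fold at 16 h.

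Zfp296, a partner of the NuRD deacetylase complex best known in pluripotent stem cells, changed both with time and with imiquimod. It had 22.7, 24.3 and 23.3 CPM at imiquimod 6 h against 6.22, 6.09 and 5.75 CPM at vehicle 6 h, and 10.5, 10.5 and 9.94 CPM at imiquimod 16 h against 6.52, 6.21 and 7.66 CPM at vehicle 16 h. Vehicle 0 h had 2.23, 1.97 and 1.81 CPM. Imiquimod libraries were highest at each time and 0 h libraries lowest, with a 3.89-fold rise at 6 h, a 1.51-fold rise at 16 h and a 2.99-fold rise of vehicle 6 h over vehicle 0 h. Zfp827, a protein that recruits NuRD to telomeres in human cells, had 14, 13 and 11.5 CPM at imiquimod 6 h against 4.43, 4.40 and 3.12 CPM at vehicle 6 h, a 3.20-fold rise, and rose 2.67-fold at 16 h. The imiquimod libraries carried Zfp296 and Zfp827 over the minimum of counts, so their membership is not independent of these rises. Zfp703, a corepressor that binds Groucho-type proteins, rose 2.37-fold at 6 h and 1.77-fold at 16 h. Zfp513, known from retinal development, rose 3.26-fold at 6 h, to 98.2, 93.5 and 104 CPM with imiquimod against 28.5, 30.5 and 31.5 CPM with vehicle, and 1.58-fold at 16 h. Zfp280b rose 3.10-fold at 6 h and 2.73-fold at 16 h.

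**Figure D3:**
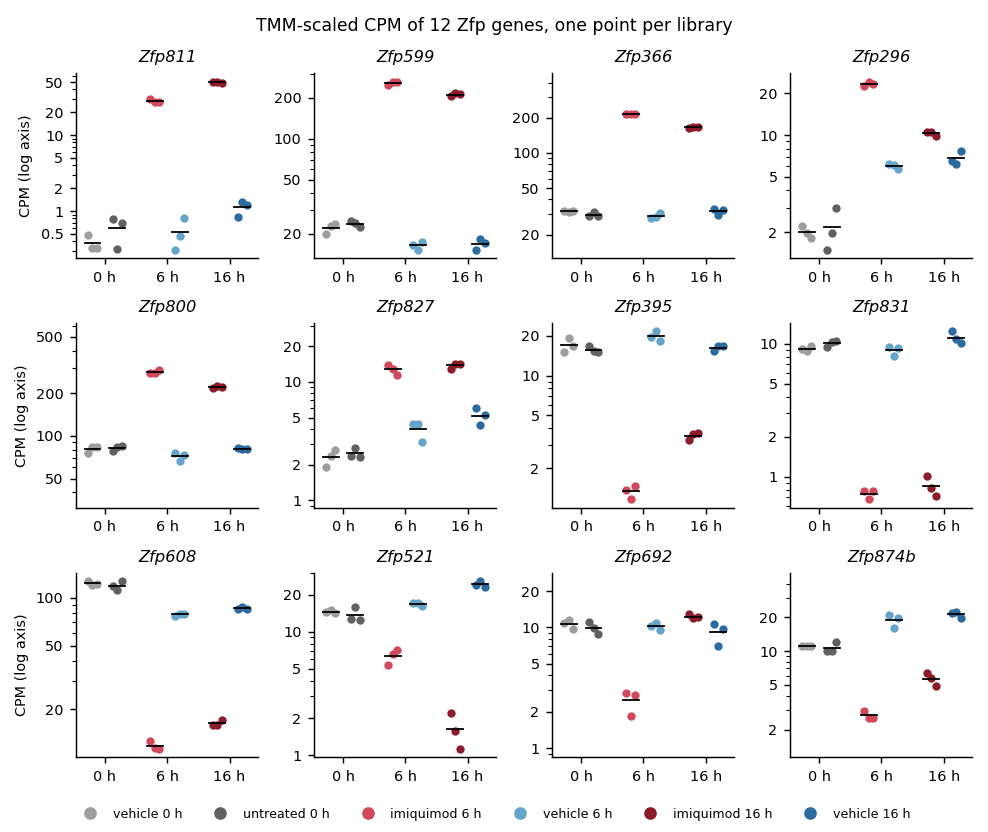
TMM-scaled CPM (log axis) of 12 Zfp genes in each library, grouped by time on the horizontal axis, with 1 point per library and a bar at each group's mean (n = 3 each). Zfp811 lies at 27.2 to 29.5 CPM at imiquimod 6 h and at 0.311 to 0.821 CPM at vehicle 6 h, and Zfp521 at 1.12 to 2.19 CPM at imiquimod 16 h and at 23.0 to 25.7 CPM at vehicle 16 h.

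Zfp395, Zfp831, Zfp608, Zfp521 and Zfp652, also without a KRAB-like box, fell at both times. For Zfp395, Zfp831 and Zfp521 the imiquimod libraries fell short of their share of the minimum of counts. The membership and rank of these 3 genes rest on the untreated and vehicle libraries and are not independent of the falls. Zfp395, a single-finger factor known as HDBP2, had 1.37, 1.16 and 1.47 CPM at imiquimod 6 h against 19.8, 21.6 and 18.1 CPM at vehicle 6 h. At 16 h it had 3.29, 3.61 and 3.69 CPM with imiquimod against 15.3, 16.7 and 16.9 CPM with vehicle. No library overlapped, and on the log2 scale the change was -3.88 at 6 h, the lowest of the members (SE 0.16, adjusted p = 6.85e-36 by edgeR), and -2.21 at 16 h. Zfp831, which promotes Bcl6 in mouse follicular helper T cells, had 0.784, 0.678 and 0.785 CPM at imiquimod 6 h, from 8, 7 and 8 reads, against 9.41, 8.10 and 9.36 CPM at vehicle 6 h. Its log2 fold change was -3.56 at 6 h and -3.67 at 16 h. Zfp608, a repressor of the Rag genes in mouse thymocytes, had 12.6, 11.4 and 11.3 CPM at imiquimod 6 h against 77.0, 79.0 and 79.2 CPM at vehicle 6 h, and 16.1, 15.9 and 17.2 CPM at imiquimod 16 h against 84.6, 87.7 and 85.4 CPM at vehicle 16 h. The groups stood apart, with log2 fold changes of -2.73 and -2.39, and vehicle 6 h was also below vehicle 0 h by a log2 fold change of -0.65.

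Zfp521, an antagonist of the B cell factor EBF1 with 27 fingers, fell further with time. It had 5.39, 6.58 and 7.17 CPM at imiquimod 6 h against 17, 17 and 16.3 CPM at vehicle 6 h, and 2.19, 1.58 and 1.12 CPM at imiquimod 16 h against 23.9, 25.7 and 23.0 CPM at vehicle 16 h. The groups did not overlap, imiquimod 16 h was the lowest of all and vehicle 16 h the highest, with log2 fold changes of -1.39 at 6 h and -3.87 at 16 h. Among the B cell markers Ebf1 was called lower and Pax5 higher at both times, as given above, and their part in this was not tested. Zfp652, a partner of the corepressor CBFA2T3 in human cells, had 25.8, 26.0 and 25.3 CPM at imiquimod 6 h against 162, 165 and 162 CPM at vehicle 6 h. Its log2 fold change was -2.67 at 6 h and -2.17 at 16 h, and 20% of its exon bases overlap other genes. Zfp385a, a p53 cofactor known as Hzf, had a log2 fold change of -1.50 at 6 h and -2.14 at 16 h. Zfp518b, a partner of the histone methyltransferase G9a, had -1.40 and -1.61, Zfp398 -1.68 and -1.39, and Zfp41 -2.15 and -1.24.

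Of 17 listed promoter and chromatin factors, 15 were members, 8 were called higher and 6 lower at 6 h, and 7 higher and 7 lower at 16 h, beside 37.7% higher and 39.2% lower of all genes at 6 h and 39.1% and 38.1% at 16 h. With scaling by library totals the 6 h counts were 7 and 7, beside 24.9% higher and 55.3% lower of all genes. Zfp263 had 193, 185 and 202 CPM at imiquimod 6 h against 90.3, 94.5 and 90.4 CPM at vehicle 6 h, a 2.11-fold rise, and rose 1.34-fold at 16 h. Zfp143, which sits at promoters and chromatin loop anchors, had 37.0, 36.0 and 34.9 CPM at imiquimod 6 h against 18.7, 17 and 17.2 CPM at vehicle 6 h, a 2.04-fold rise, and rose 1.18-fold at 16 h. For both genes the libraries stood apart at 6 h. Zfp451, a SUMO ligase, rose 1.76-fold at 6 h and 1.59-fold at 16 h, and Zfp281 1.54-fold and 1.37-fold. Zfp592 fell by 0.59 on the log2 scale at 6 h and by 0.58 at 16 h, and Zfp148, which binds GC-rich promoters, fell by 0.25 and by 0.35. Zfp335 had a log2 fold change of 0.00 at 6 h (not called, but called at -0.35 with scaling by library totals) and of -0.37 at 16 h (called), and 28.3% of its exon bases overlap other genes.

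All 13 listed RNA, ribosome and translation members were tested, with 2 called higher and 6 lower at 6 h and 4 higher and 5 lower at 16 h. The shares of all genes with TMM scaling were those given for the promoter and chromatin factors. With scaling by library totals 1 was higher and 11 lower at 6 h, beside 24.9% and 55.3% of all genes. Zfp593, whose relatives take part in assembly of the large ribosomal subunit, had 21.1, 24.3 and 20.2 CPM at imiquimod 6 h against 6.84, 8.79 and 8.37 CPM at vehicle 6 h. It rose 2.73-fold at 6 h and 3.02-fold at 16 h, while vehicle 6 h was lower than vehicle 0 h by a log2 fold change of -0.64. The gene E130218I03Rik overlaps 77.9% of its exon bases, and since the strand setting of the counting is not given in the sources used here, the reads of the 2 genes may not be told apart. Zfp706, a small protein with 76 residues linked to translational control in stem cells, had 57.1, 65.2 and 63.6 CPM at imiquimod 6 h against 137, 141 and 147 CPM at vehicle 6 h, with log2 fold changes of -1.19 at 6 h and -0.74 at 16 h. Zfp326, part of the DBIRD complex that couples transcription to splicing, had -0.68 and -0.47. Zfp598, the ligase that marks collided ribosomes, was not called at 6 h (0.06, but called lower at -0.29 with library totals) and rose 1.44-fold at 16 h, to 48.6, 50.8 and 51.5 CPM with imiquimod against 33.4, 36.9 and 34.5 CPM with vehicle. Zfp318, needed for IgD splicing in B cells, was not called at 6 h (-0.12), was called there when replicate 2 (-0.14) or 3 (-0.16) of vehicle 6 h was left out and with library totals (-0.47), and fell by 0.43 on the log2 scale at 16 h. Zfp207, the most abundant member per length, rose 1.22-fold at 6 h with TMM scaling and had a log2 fold change of -0.06 with scaling by library totals, and at 16 h its change of 0.00 was not called. Zfp830, a splicing factor, had 0.06 and 0.03, neither called, but was called lower at 6 h with library totals (-0.29), and Zfp106 had -0.07 at both times, not called. With library totals Zfp106 was called lower at 6 h (-0.42) and at 16 h (-0.080), and so it was with rRNA genes left out (-0.091 and -0.073). It was also called lower at 6 h without the filter on low counts (-0.10), and at 16 h when only the groups compared were fitted (-0.085). Zfp106 was called lower at 6 h when replicate 2 of imiquimod 6 h (-0.087) or replicate 1 (-0.093) or 2 (-0.11) of vehicle 6 h was left out, and at 16 h when replicate 1 of imiquimod 16 h was (-0.084).

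Of 7 listed lymphoid, haematopoietic and immune signalling genes, 5 were members. At 6 h 1 was called higher and 2 lower, and at 16 h 1 higher and 4 lower. With scaling by library totals 0 were higher and 4 lower at 6 h, beside 24.9% and 55.3% of all genes. With TMM scaling 37.7% of all genes were called higher and 39.2% lower at 6 h, and 39.1% and 38.1% at 16 h. The listed gene that rose was Zfp91, a ligase of the noncanonical NF-kB pathway, at 1.28-fold at 6 h and 1.17-fold at 16 h. Its 6 h log2 fold change was 0.01 and not called with scaling by library totals. Of 6 listed genes of imprint and retroelement silencing, 4 were members. Zfp809 rose at both times as given above. Zfp445, a guardian of imprints, rose 1.21-fold at 16 h. At 6 h its log2 fold change was 0.12 with TMM scaling, was not called without vehicle 6 h replicate 3 (0.07), and was -0.23 with scaling by library totals. Zfp568, which silences a placental Igf2 transcript, had -0.23 at 6 h, which was no longer called without imiquimod 6 h replicate 2 (-0.17), and -0.03 at 16 h, not called. Zfp932 had a log2 fold change of -0.81 at 6 h (called) and -0.19 at 16 h (not called, but called at -0.29 when replicate 2 of imiquimod 16 h, or at -0.23 when replicate 3 of vehicle 16 h, was left out), and shares 26.4% of its 75-base windows with other genes.

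Of 36 listed corepressor and silencing genes, none of them a member, 35 were tested. At 6 h, 19 were called higher and 9 lower, and at 16 h 26 were higher and 8 lower. With TMM scaling 37.7% of all genes were called higher and 39.2% lower at 6 h, and 39.1% and 38.1% at 16 h. With scaling by library totals 12 of the list were higher and 18 lower at 6 h, beside 24.9% and 55.3% of all genes. Trim28 averaged 181 ± 2.75 CPM at imiquimod 6 h and 214 ± 20.1 CPM at vehicle 6 h, and 262 ± 6.37 CPM at imiquimod 16 h and 158 ± 3.09 CPM at vehicle 16 h (SD, n = 3 each), with log2 fold changes of -0.24 and 0.73, both called. Setdb1 averaged 130 ± 1.44 CPM at imiquimod 6 h and 90.2 ± 2.96 CPM at vehicle 6 h (log2 fold change 0.53), and had 0.73 at 16 h. The HP1 gene Cbx5 had 1.31 and 1.81, and Daxx, a histone chaperone, had 3.37 and 2.17. In vehicle cells over time 15 of the list were called lower and 8 higher at 6 h, and 21 lower and 7 higher at 16 h, where 26.9% of all genes were lower and 26.0% higher at 6 h, and 30.0% and 28.4% at 16 h.

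**Figure D4:**
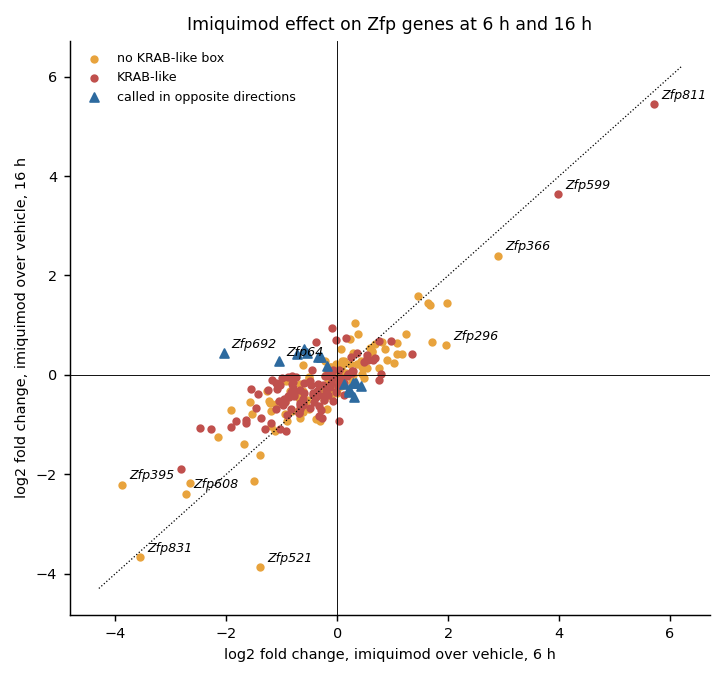
Log2 fold change of imiquimod over vehicle at 6 h (horizontal axis) and at 16 h (vertical axis) for the 252 Zfp genes, coloured by the KRAB-like box, with triangles for the 17 genes called in opposite directions. The dotted line marks equal change, and Zfp692 lies at -2.04 and 0.43.

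The 2 imiquimod comparisons share no library, and 43 members were called higher at both times, 102 lower at both, 17 in opposite directions and 25 at neither. Of all genes tested 28.1% were called higher at both times, 28.3% lower at both, 7.82% in opposite directions and 10.1% at neither. A further 24 were lower and 11 higher at 6 h only, and 18 lower and 12 higher at 16 h only. In the test of the difference between the effects (16 h minus 6 h), 79 members were called higher and 60 lower, where 28.5% of all genes were called higher and 28.4% lower. At least 2-fold differences were called in 14 members upward and 3 downward, against 9.42% and 9.06% of all genes. With scaling by library totals the counts of all calls were 155 and 19, beside 46.7% and 15.2% of all genes. The members' median lay above that of all genes by 0.043 with TMM scaling and by 0.046 with library totals. The difference was called in all 17 members with opposite directions. With scaling by library totals 9 of the 17 still held calls in opposite directions, and the 8 that did not were among the 9 that were higher at 6 h and lower at 16 h.

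Zfp692, the factor AREBP of the AICAR response, had the highest difference. It had 2.84, 1.84 and 2.75 CPM at imiquimod 6 h against 10.3, 10.8 and 9.60 CPM at vehicle 6 h, and 12.9, 11.9 and 12.2 CPM at imiquimod 16 h against 10.7, 7.00 and 9.75 CPM at vehicle 16 h. Imiquimod 6 h was the lowest group and imiquimod 16 h lay above all vehicle libraries, with log2 fold changes of -2.04 and 0.43 and a difference of 2.47 (SE 0.21, edgeR adjusted p = 1.68e-17). Zfp64, an activator known to hold the MLL promoter in human leukaemia, had 5.10, 6.29 and 8.05 CPM at imiquimod 6 h against 13.8, 12.4 and 14 CPM at vehicle 6 h, and 15, 15.5 and 16.1 CPM at imiquimod 16 h against 12.9, 12.9 and 12.6 CPM at vehicle 16 h. Its log2 fold changes were -1.04 and 0.28. The KRAB-like Zfp81, Zfp111, Zfp934 and Zfp958 were also lower at 6 h and higher at 16 h, and had -0.55 and 0.43, -0.72 and 0.41, -0.60 and 0.51, and -0.30 and 0.36. Zfp362 had -0.36 and 0.36, and Zfp346 had -0.18 and 0.19, where DESeq2 called neither (adjusted p = 0.139 and 0.0705). In edgeR the 6 h call of Zfp346 was lost with DESeq2's size factors (-0.15) and when replicate 1 (-0.16) or 3 (-0.17) of imiquimod 6 h, or replicate 1 (-0.17) or 3 (-0.14) of vehicle 6 h, was left out, and the 16 h call when replicate 1 or 3 of imiquimod 16 h or replicate 3 of vehicle 16 h was left out (0.18 each). Zfp217, a partner of the CoREST and LSD1 complex, was the member that was higher at 6 h and lower at 16 h under both scalings. It had 276, 291 and 293 CPM at imiquimod 6 h against 201, 220 and 215 CPM at vehicle 6 h, and 177, 184 and 180 CPM at imiquimod 16 h against 215, 212 and 210 CPM at vehicle 16 h. Zfp644, Zfp212, Zfp467, Zfp384, Zfp619, Zfp26, Zfp236 and Zfp518a had calls in the same directions as Zfp217 with TMM scaling, with log2 fold changes of 0.12 to 0.34 at 6 h and of -0.44 to -0.16 at 16 h. Leaving out 1 library ended the 6 h call of Zfp212 and Zfp467 (vehicle 6 h replicate 1, 0.11 and 0.20), of Zfp644 (vehicle 6 h replicate 2, 0.085, or 3, 0.050) and of Zfp619 (vehicle 6 h replicate 2, 0.14, or 3, 0.17, or imiquimod 6 h replicate 3, 0.16).

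The effects on Zfp90 and Zfp637 differed in size between the times. Zfp90, a KRAB-like gene of which Gm26786 overlaps 79.5% of the exon bases, had 37.4, 35.3 and 35.8 CPM at imiquimod 6 h against 34.9, 35.5 and 35.7 CPM at vehicle 6 h, which was not called with TMM scaling but was called lower with library totals (-0.32). At 16 h it had 15.9, 21.9 and 20.2 CPM with imiquimod against 35.2, 36.1 and 38.5 CPM with vehicle, a log2 fold change of -0.92. The vehicle level stayed above the vehicle 0 h values of 24.5, 23.7 and 22.2 CPM at both later times. Zfp637 had a log2 fold change of -1.91 at 6 h and -0.71 at 16 h, a difference of 1.2. Its imiquimod libraries fell short of their share of the minimum of counts, so its membership is not independent of these falls.

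**Figure D5:**
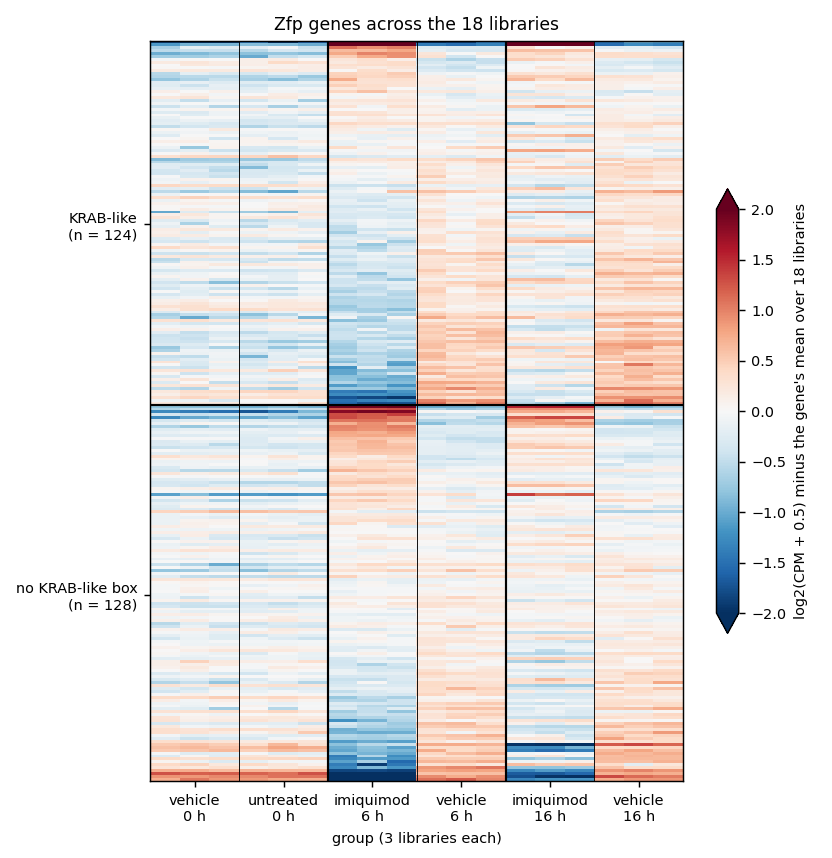
Log2(CPM + 0.5) of the 252 Zfp genes minus each gene's mean over the 18 libraries (colour, from -2 to 2), with libraries in columns by group and genes in rows, the 124 KRAB-like genes above the 128 others, each sorted by the imiquimod change at 6 h. Of the 124 KRAB-like genes, 57 have their lowest group mean at imiquimod 6 h and 61 their highest at vehicle 16 h.

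In vehicle cells over time the members with the highest rises included Zfp296, Zfp7, Zfp189 and Zfp46. Zfp189 had 10.5, 11.2 and 8.21 CPM at vehicle 6 h and 10.7, 9.40 and 10.3 CPM at vehicle 16 h against 3.82, 4.52 and 3.71 CPM at vehicle 0 h, log2 fold changes of 1.31 and 1.33. All later libraries stood above all 0 h libraries, and imiquimod 16 h was higher still at 23.1, 19 and 20.1 CPM. Zfp46, a KRAB-like gene, had 21.5, 22.7 and 24.5 CPM at vehicle 6 h against 8.90, 9.78 and 10.1 CPM at vehicle 0 h, and its log2 fold change of -0.13 at imiquimod 6 h over vehicle 6 h was not called with TMM scaling but was with library totals (-0.48) and without replicate 1 of vehicle 6 h (-0.20). Zfp948 had a log2 fold change of 1.17 at vehicle 6 h and 1.43 at vehicle 16 h over vehicle 0 h. Zfp367 fell, with 33, 34.4 and 33.5 CPM at vehicle 6 h and 28.7, 28.3 and 29.7 CPM at vehicle 16 h against 59.8, 62.8 and 69.4 CPM at vehicle 0 h. Its imiquimod 16 h libraries, at 46.9, 46.9 and 49.0 CPM, lay between. Zfp821 and Zfp868 also fell in vehicle cells, with log2 fold changes of -0.60 and -0.57 at 6 h and -0.73 and -0.57 at 16 h, and Zfp1 fell by 0.59 at both times.

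Zinc finger genes under other names were set beside the Zfp genes by the same minimum of counts. Of 35 Zbtb-named genes, whose proteins pair fingers with a BTB domain, 15 were called higher and 12 lower at 6 h after imiquimod and 14 higher and 17 lower at 16 h. With scaling by library totals 7 of them were higher and 22 lower at 6 h. Of 15 Zscan- and Zkscan-named genes, which carry a SCAN domain, 2 were higher and 6 lower at 6 h, and 3 higher and 9 lower at 16 h, with 1 higher and 13 lower at 6 h with library totals. The shares of all genes with TMM scaling were 37.7% higher and 39.2% lower at 6 h, and 39.1% and 38.1% at 16 h. With scaling by library totals the 6 h shares of all genes were 24.9% higher and 55.3% lower. In vehicle cells both sets had more genes higher than lower at 6 h, with 18 and 5 for the Zbtb genes and 10 and 1 for the Zscan and Zkscan genes, beside 131 and 36 for the Zfp genes. The sets were not tested against each other.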

How the data were processed

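Gene counts were deposited as 1 table of raw counts, made by the authors from reads aligned to mm10 with STAR, per the submitters' processing notes. The counting tool, the annotation, the strand setting and the handling of reads that match several genes are not given in the sources used here. The 18 libraries hold 10609741 to 13447018 counts each. From the counts as deposited, edgeR 4.0.16 (R 4.3.3) fitted 1 quasi-likelihood model with 6 groups of 3 libraries, TMM scaling and a minimum count of 10 in filterByExpr, and Benjamini-Hochberg adjustment ran over all 14876 genes tested with a threshold of 0.05. SE is the absolute log2 fold change divided by the square root of F, which understates the error of genes with few counts. Finger and KRAB-like patterns, the 75-base windows and the exon overlaps were read from GENCODE M21, matched by gene ID for all 252 members (18 in another version). The finger pattern allows 2 to 4 residues between the cysteines, 12 in the loop and up to 5 between the histidines. Members and lists were chosen with earlier results of these data known. Named genes are the 10 highest and 10 lowest called changes with separate groups in each imiquimod comparison, 5 each way in the others, and a panel of 44 genes with known roles, of which 38 were members. Genes beyond these, such as the rest of the opposite calls, Zfp62 and neighbouring genes, were chosen after their values were seen, as were the 2-fold threshold and the comparisons of imiquimod with vehicle 0 h. Alternatives were DESeq2 1.42.0, its size factors, library totals, other filters and minimum sums, a replicate block, and leaving out each library. The fit was tested on simulated data first.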

Additional observations from a re-analysis of the deposited data

Results flagged for a closer look

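For 57 Zfp genes, among those chosen by the rule for named genes and those with opposite calls, the imiquimod effects at 6 h and 16 h differed by the test of the difference itself, on the log2 scale as 16 h minus 6 h, with an edgeR adjusted p under 0.05. The difference was positive for 27 and negative for 30. Many of these genes were picked by their changes in the same comparisons, so a called difference is partly built in. Among all 252 members 79 were called higher and 60 lower in the difference, beside 28.5% and 28.4% of all genes. With scaling by library totals all 27 positive differences were still called, while of the 30 negative ones 13 were, 14 were not, and Zfp451, Zfp638 and Zfp91 were called the other way. Under that scaling 46.7% of all genes were called higher in the difference and 15.2% lower. The highest differences were those of Zfp692 at 2.47, Zfp395 at 1.68, Zfp874a at 1.40, Zfp64 at 1.32 and Zfp873 at 1.27. Of these, Zfp395, Zfp874a and Zfp873 were lower with imiquimod at both times and less so at 16 h, while Zfp692 and Zfp64 were lower at 6 h and higher at 16 h. The 16 h call of Zfp873 was lost when replicate 1 of vehicle 16 h or of imiquimod 16 h was left out, with -0.22 in both cases. Zfp346, with opposite calls, had a difference of 0.37. Negative differences included those of Zfp521 at -2.48, Zfp296 at -1.36, Zfp513 at -1.05, Zfp90 at -0.96, Zfp119b at -0.93, Zfp217 at -0.67 and Zfp384 at -0.50. Of these, Zfp296, Zfp513 and Zfp119b were higher with imiquimod at both times and less so at 16 h, Zfp521 was lower at both times and more so at 16 h, and Zfp90 was called at 16 h only. Zfp217 and Zfp384 were higher at 6 h and lower at 16 h, and for Zfp384 neither the 6 h change (-0.01) nor the difference (-0.16) was called with scaling by library totals.

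The other positive differences were those of Zfp637 at 1.2, Zfp945 at 1.19, Zfp111 at 1.13, Zfp934 at 1.11, Zfp850 at 1.03, Zfp81 at 0.98, Zfp874b at 0.92, Zfp41 at 0.90, Zfp7 at 0.83, Zfp362 at 0.72 and Zfp189 at 0.71, and, nearer to 0, Zfp606 at 0.68, Zfp958 at 0.65, Zfp932 at 0.63, Zfp652 at 0.50, Zfp367 at 0.48, Zfp598 at 0.46, Zfp706 at 0.46, Zfp608 at 0.34, Zfp398 at 0.30 and Zfp445 at 0.15. The other negative differences were those of Zfp143 at -0.79, Zfp467 at -0.75, Zfp263 at -0.65, Zfp385a at -0.64, Zfp131 at -0.62, Zfp619 at -0.56, Zfp800 at -0.53, Zfp236 at -0.51 and Zfp212 at -0.50, and, nearer to 0, Zfp366 at -0.49, Zfp518a at -0.48, Zfp26 at -0.45, Zfp703 at -0.42, Zfp335 at -0.37, Zfp599 at -0.33, Zfp868 at -0.32, Zfp318 at -0.32, Zfp809 at -0.30, Zfp644 at -0.30, Zfp207 at -0.28, Zfp638 at -0.17, Zfp451 at -0.15 and Zfp91 at -0.13. Leaving out 1 library ended the call for 5 of these. For Zfp638 it was imiquimod 16 h replicate 1 (-0.11), and for Zfp703 vehicle 16 h replicate 1 (-0.35). For Zfp868 it was vehicle 6 h replicate 3, imiquimod 6 h replicate 3, vehicle 16 h replicate 1 or imiquimod 16 h replicate 1 (-0.28 to -0.25). For Zfp451 it was vehicle 6 h replicate 3, imiquimod 6 h replicate 2 or 3, vehicle 16 h replicate 3 or imiquimod 16 h replicate 1 (-0.13 to -0.10). For Zfp91 it was vehicle 6 h replicate 2, imiquimod 6 h replicate 2 or 3, vehicle 16 h replicate 3 or any imiquimod 16 h replicate (-0.13 to -0.081).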

How the results depend on the processing

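Scaling by library totals instead of TMM moved the imiquimod 6 h counts to 34 members higher and 190 lower, the difference between the effects to 155 higher and 19 lower, and imiquimod 6 h over vehicle 0 h to 47 higher and 159 lower. The shares of all genes moved too, in the same order to 24.9% higher and 55.3% lower, 46.7% and 15.2%, and 23.1% and 56.0%. A minimum sum of 3000 counts, which leaves fewer members, gave 88 lower at imiquimod 6 h, 45 higher in the difference, 79 and 89 higher at vehicle 6 h and 16 h over vehicle 0 h, and 62 higher at imiquimod 16 h over vehicle 0 h. The size of this smaller set and its calls in the other direction are not given here. These counts therefore do not show whether the shares of calls changed. Scaling by library totals also reversed 18 values of named genes. At imiquimod 6 h over vehicle 6 h these were Zfp189 (-0.027), Zfp207 (-0.064), Zfp367 (-0.11), Zfp384 (-0.013), Zfp445 (-0.23), Zfp598 (-0.29), Zfp830 (-0.29) and Zfp90 (-0.32). In the difference they were Zfp148 (0.23), Zfp207 (0.054), Zfp318 (0.021), Zfp451 (0.19), Zfp599 (0.0019), Zfp638 (0.17), Zfp809 (0.037), Zfp830 (0.31), Zfp868 (0.012) and Zfp91 (0.20). The cause was not tested.

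Leaving out 1 library at a time gave 57 to 64 members higher and 126 to 140 lower at imiquimod 6 h, 58 to 64 and 121 to 131 at imiquimod 16 h, and 73 to 84 and 51 to 62 in the difference. Vehicle 6 h over 0 h gave 125 to 134 and 27 to 37, and vehicle 16 h 136 to 142 and 26 to 30. Imiquimod 6 h over vehicle 0 h gave 82 to 86 and 89 to 97, and imiquimod 16 h 101 to 106 and 73 to 80. The members' median ran from -0.29 to -0.21 at imiquimod 6 h and from -0.20 to -0.17 at imiquimod 16 h. With the replicate number as a block, imiquimod 6 h had 63 higher and 132 lower, imiquimod 16 h 62 and 128, the difference 79 and 59, vehicle 6 h 131 and 36 and vehicle 16 h 140 and 29. At 0 h no member was called in any of these fits. Deviations of libraries with the same number correlated at -0.07 to 0.03 over all genes tested, which showed no pairing. Such deviations hold counting noise, so these values cannot exclude a shared culture or animal. Over the other settings, 3118 values of named genes kept their direction and side of the threshold, 42 crossed into it and 35 out of it. Genes near 1 CPM rest on few reads, which limits their precision.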
